A study of Homo sapiens with 15 samples.

Results

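The genes described here are 9 that encode enzymes linked to the unwinding of G-quadruplexes or R-loops: BLM, WRN, BRIP1, RTEL1, DDX11, PIF1, DHX36, DHX9 and ATRX. For short they are called helicase genes, including that of the chromatin remodeller ATRX. They were taken by name, from knowledge of their function and with earlier results of these data known, out of 19785 protein-coding genes. For each one the BG4 peaks within 1 kb of an annotated start site, or inside the gene, were collected. BG4 is an antibody that binds G-quadruplexes in DNA, and chromatin from asynchronously growing K562 cells, an established human leukaemia line, was precipitated with it and sequenced. There were 5 libraries from 2 biological replicates: technical libraries 1a and 1c of replicate 1, and 2a, 2b and 2c of replicate 2. Each library had its own peak list, and a list of high-confidence regions held every stretch covered by at least 3 of the 5 lists. The 2 input libraries and the HaCaT bisulfite libraries of the series were not analysed here. Peaks deposited for 2a are named with the letter c, and those for 2c with the letter a. The sample labels were followed, so values given for 2a and 2c could be exchanged, and with them the highest BLM fold and the only PIF1 peak.

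A G-quadruplex is a stack of planar guanine tetrads that a strand with several runs of guanine can fold into. An R-loop is an RNA strand paired with its DNA template, with the other DNA strand displaced; when the displaced strand is rich in guanine it can hold quadruplexes. Helicases that move along DNA or RNA open both structures, and their loss leads to stalled replication forks and genome instability. BLM and WRN are RecQ helicases, mutated in Bloom and Werner syndromes. BRIP1 (also FANCJ), RTEL1 and DDX11 belong to the iron-sulphur helicases related to XPD. PIF1 is the namesake of its own family, DHX36 and DHX9 are DEAH-box helicases that act on RNA as well as DNA, and ATRX is a chromatin remodeller with a SNF2 motor that works with DAXX to deposit histone H3.3. The data below show where BG4 bound at the genes of these enzymes, not where the enzymes act, and they give no expression level.

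A high-confidence region lay at the promoters of BLM, WRN and DHX9, so at 3 of the 9 genes (33.3%). Among all protein-coding genes the share was 34.3%, so the count among the helicases was near the background. RTEL1, DDX11 and PIF1 had promoter peaks in 1 or 2 libraries. BRIP1, DHX36 and ATRX had none in any library. A promoter peak in at least 1 library was present at 6 of 9 genes, against 47% of all genes, and in all 5 libraries at 2 of 9, against 22.6%. With the gene bodies included the count of genes with a high-confidence region remained 3 of 9, against 37.6% of all genes, since no region lay inside any of the 9 genes away from its promoter. The members were chosen by function, with earlier results of these data known, and no test of the set was made.

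The sequences of the bound stretches show how different the regions are. Each is printed on the strand of transcription, in lower case, with every run of 3 or more G or C in capitals; a run of C is a run of G on the other strand. For these 4 stretches only bases outside annotated exons are printed, from GRCh37. BLM and DHX9 are shown because BG4 peaks were present there in all 5 libraries. The BLM stretch is chr15:91260376-91260576 on the plus strand, and the DHX9 stretch is chr1:182808319-182808446, also on the plus strand. DDX11 (chr12:31227059-31227153, plus strand) and PIF1 (chr15:65117939-65118045, minus strand) are shown as peaks of library 2a that are not in the high-confidence list.
BLM: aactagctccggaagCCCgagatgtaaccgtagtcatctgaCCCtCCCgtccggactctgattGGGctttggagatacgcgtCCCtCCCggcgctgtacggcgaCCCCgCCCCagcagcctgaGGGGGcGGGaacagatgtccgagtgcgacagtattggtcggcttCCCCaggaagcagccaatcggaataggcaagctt
DHX9: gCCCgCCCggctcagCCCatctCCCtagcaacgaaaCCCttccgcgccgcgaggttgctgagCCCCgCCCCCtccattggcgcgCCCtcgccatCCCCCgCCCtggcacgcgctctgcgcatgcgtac
DDX11: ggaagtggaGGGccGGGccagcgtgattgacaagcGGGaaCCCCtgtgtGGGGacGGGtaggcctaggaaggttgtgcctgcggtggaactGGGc
PIF1: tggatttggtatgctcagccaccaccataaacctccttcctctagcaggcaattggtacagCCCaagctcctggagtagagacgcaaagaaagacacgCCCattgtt

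The printed BLM stretch has 3 runs of G and 8 of C, spread over 201 bases and in no place close enough to form a canonical motif. The DHX9 stretch has 10 runs of C and no run of G in 128 bases, so its runs of guanine lie on the other strand. DDX11 has the reverse bias, with 6 runs of G and 1 of C in 95 bases. The PIF1 peak, seen in 1 library, has 2 runs of C and a GC content of 50.5%, the lowest of the 4.

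A canonical G4 motif was taken to be 4 guanine runs, each at least 3 long, joined by loops that span 1 to 7 bases, and both strands were searched. A few of these motifs are shown next, on the strand that carries the G and with runs of G in capitals, because most motifs lay where no library had a peak. The DHX9 motif is chr1:182808320-182808343 (minus strand) and lies inside the high-confidence region. The BLM motif is chr15:91259922-91259936 (plus), the BRIP1 motif chr17:59940894-59940922 (minus) and the RTEL1 motif chr20:62289060-62289089 (plus). These short motifs were not limited to bases outside exons, and most of the BRIP1 motif lies inside the annotated gene.
DHX9: GGGagatGGGctgagccGGGcGGG
BLM: GGGaGGGcGGGaGGG
BRIP1: GGGctattGGGcgctGGGagtcgaGGGGG
RTEL1: GGGGccttctGGGGccttctGGGGcatGGG

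The BLM motif has loops of 1 base each, yet no library had a peak over it. It lay at −655 to −641 bp from the main start site (a minus sign marks upstream), outside its region. The BRIP1 motif ended 5 bp upstream of the main start site, in a promoter without any peak. The windows of 1 kb on either side of the 9 main start sites held 13 such motifs. Of these, 3 (23.1%) lay wholly inside a high-confidence region, 2 at WRN and 1 at DHX9, and the other 10 were inside no peak of any library. Over all protein-coding genes 9.44% of the motifs in these windows lay inside a high-confidence region and 16.1% inside a peak of at least 1 library, so a motif without a peak was the common case. A motif is a match of letters and not a folded structure.

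**Figure D1:**
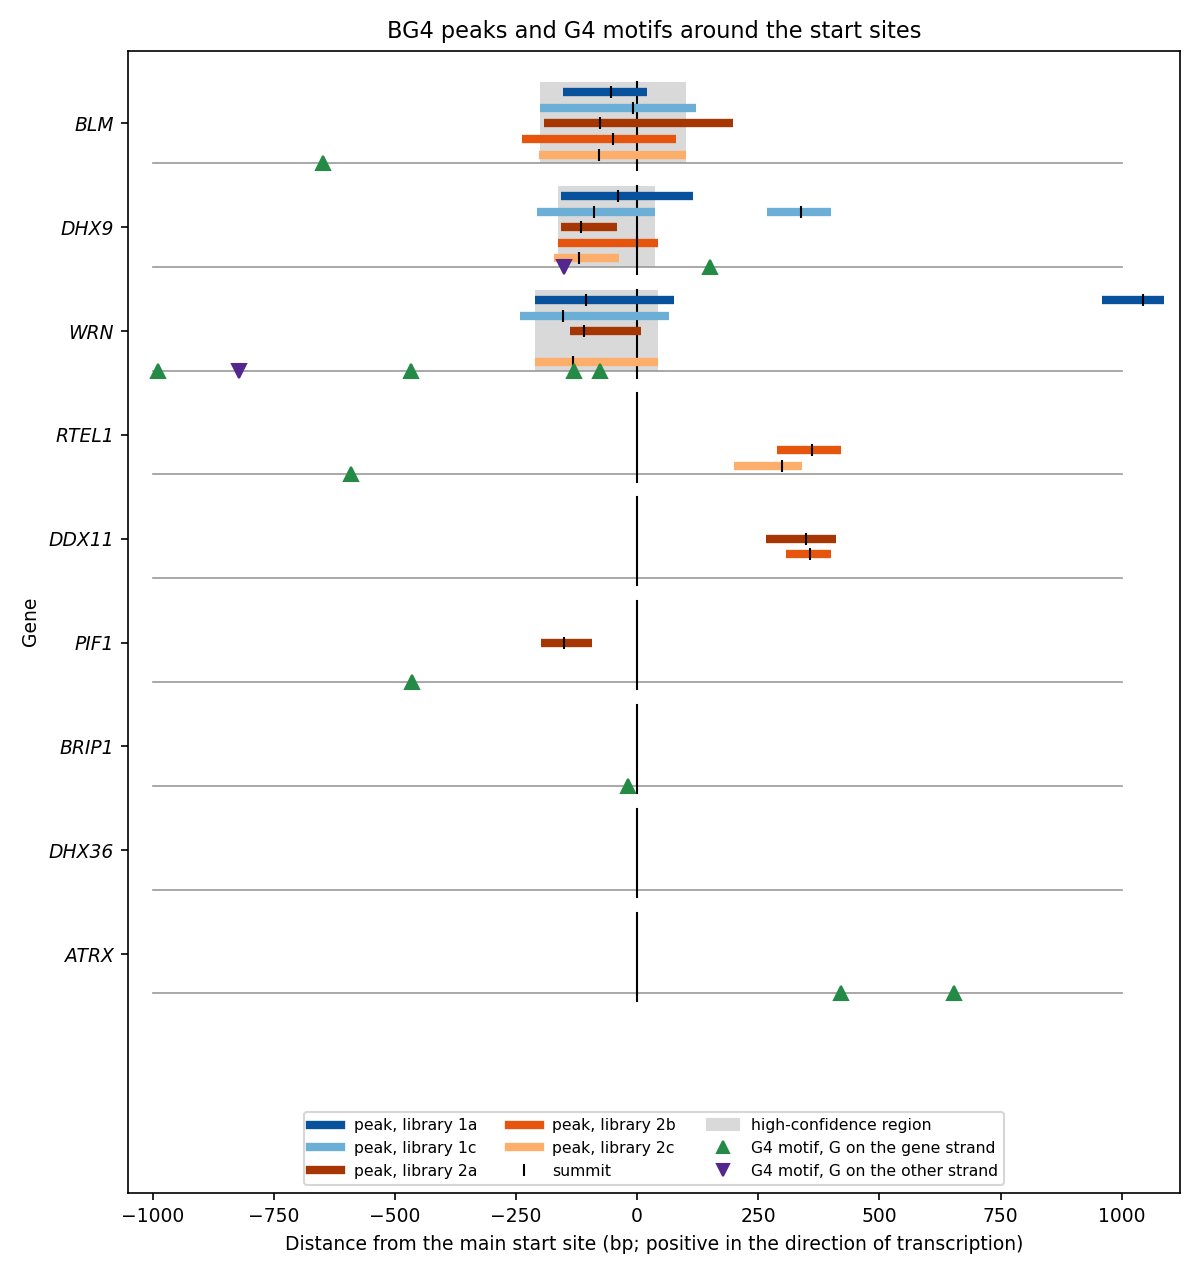
Positions of BG4 peaks (bars, 1 colour per library, summit as a tick), high-confidence regions (grey) and G4 motifs (triangles, by the strand with the G) against the distance in bp from the main start site of each gene. The regions of BLM, DHX9 and WRN cover the start site, the peaks of RTEL1 and DDX11 lie downstream of it, and most motifs lie outside the peaks.

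At least 1 motif was present in the window of 7 of the 9 genes, against 68.6% of all protein-coding genes; DHX36 and DDX11 had none. Of those 7 genes 3 had a high-confidence region, namely BLM, WRN and DHX9, though the BLM motif was outside its region. Across all genes a high-confidence region was present at 40.8% of the promoters with a motif and at 20.1% of those without. Within the regions themselves, those of WRN and DHX9 held a motif and that of BLM did not, where 37.3% of 6695 high-confidence promoter regions did. With runs of 2 or more G allowed, the BLM region matched as well, as did 93.9% of the promoter regions. The G runs lay on the strand of the gene in 11 of the 13 motifs (84.6%), against 54.6% over all genes. The exceptions were the DHX9 motif printed above and 1 at WRN. The WRN window alone, shared with PURG on the opposite strand, held 4 of the 11, so the motifs are not independent. Most of the 13 lay upstream of the main start site. The difference in share was not tested.

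BLM, the RecQ helicase that dissolves recombination intermediates and restrains sister chromatid exchange, had a peak at its start site in every library. Its fold enrichment, the summit signal over the local background in the deposited list, was 7.75 (1a) and 6.39 (1c) in replicate 1, and 11.7 (2a), 7.03 (2b) and 7.44 (2c) in replicate 2. The −log10 p values ranged from 12.3 in 1c to 22.1 in 2a. Folds from different lists are not on a common scale, so each peak was also ranked within its own list. The peak stood above 64.2% of all peaks in 1a and 46.1% in 1c, then above 95.8%, 65.1% and 73.6% in 2a, 2b and 2c. Library 2a was the highest and 1c the lowest. The mean percentile over biological replicates was 66.7 ± 16.3 (SD, n = 2).

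The 5 BLM peaks shared 176 bases and were 176 to 390 bp wide. All summits lay upstream of the main start site, between 79 and 9 bp before it. The high-confidence region (chromosome 15, 91260376 to 91260677, hg19) was 302 bp wide and covered the start site and part of the untranslated first exon. Its width exceeded that of 77.1% of promoter regions, while its GC content of 64.2% exceeded that of only 16.9%, whose median was 71.2%. The lncRNA gene CRTC3-AS1 starts within 1 kb on the other strand, so the region lies at a divergent promoter.

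DHX9, the DEAH-box enzyme also called RNA helicase A, which unwinds RNA-DNA hybrids, likewise had a peak in all 5 libraries. Fold enrichment was 10.1 (1a) and 11.1 (1c) in replicate 1, against 6.97 (2a), 5.39 (2b) and 6.86 (2c) in replicate 2. The percentiles were 84.5 and 93.5 in 1a and 1c, then 54.7, 29.5 and 65.7 in 2a, 2b and 2c. Library 1c was the highest and 2b the lowest. The −log10 p values ran from 10.1 in 2b to 21.6 in 1c. By percentile of fold, both libraries of replicate 1 stood above all 3 of replicate 2, a split found at 21.8% of the 4467 genes with a promoter peak in all libraries. At BLM both libraries of replicate 1 stood below all 3 of replicate 2 by that percentile, as at 12% of those genes, but narrowly, with 64.2 in 1a against 65.1 in 2b. Ranked by −log10 p within each list instead, the BLM peak stood above 76.4% of peaks in 1a and 60.2% in 1c. In 2a, 2b and 2c it stood above 92.9%, 63.6% and 59.1%, so the replicates overlapped by this measure. With 2 biological replicates neither difference can be tested.

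The DHX9 peaks shared 117 bases, and their summits lay from 121 to 1 bp upstream of the start site. The region (chromosome 1, 182808319 to 182808519) was 201 bp wide with a GC content of 72.1% and a CpG content 1.11 times that expected from its bases. It covered the start of DHX9 and touched exons of DHX9 and of the antisense gene DHX9-AS1. The main start of that lncRNA gene lies within 1 kb on the other strand, so this region also lies at a divergent promoter. Library 1c alone had a further, weaker DHX9 peak 267 to 400 bp downstream of the start, with a fold of 4.65 at percentile 11.0. The motif inside the region was wholly covered by the peaks of 1c, 2b and 2c. A second DHX9 motif, 139 to 161 bp downstream with its G on the other strand from the first, lay wholly inside no peak.

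WRN, the RecQ helicase with an exonuclease domain, had a peak in 4 libraries and none in 2b. Fold enrichment was 6.64 (1a) and 6.86 (1c) in replicate 1, and 4.73 (2a) and 3.53 (2c) in replicate 2. Its percentiles were 47.4 in 1a and 55.5 in 1c but 8.23 in 2a and 2.64 in 2c, so the gene's peak was near the middle of the lists in replicate 1 and near the bottom or missing in replicate 2. The replicate means of the percentile were 51.5 and 5.43, where the mean of replicate 2 leaves out 2b. When a −log10 p of 10 or more was required, WRN kept its peak in 1a and 1c, which left it without a high-confidence region, while BLM and DHX9 kept all 5.

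The WRN region (chromosome 8, 30891116 to 30891370) was 255 bp wide and had a GC content of 74.1%. It touched untranslated exons of both WRN and PURG, a protein-coding gene that starts on the opposite strand, so the peak cannot be assigned to 1 of these genes. It held 17 runs of G on the WRN strand and 2 on the other, and 2 motifs, both on the WRN strand, at −144 to −118 and −87 to −66 bp from the main start site. Another 3 motifs in the WRN window had no peak. Library 1a had a second peak 960 to 1087 bp downstream of the start, with a fold of 5.40.

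The 3 regions differed in which strand carried more guanine. GC skew, the excess of G over C on the strand of transcription divided by their sum, was 0.32 at WRN, 0.10 at BLM and −0.27 at DHX9. Over 7760 pairs of a high-confidence region and a promoter the median skew was 0.02, and the range from the 5th to the 95th percentile was −0.27 to 0.30. WRN stood above 95.8% of the pairs and DHX9 above 5.27%, so these regions lay near opposite ends of the range, while BLM stood above 69.1%. Positive skew puts the excess guanine on the strand an R-loop would displace, but only where the gene itself is transcribed. The middles of these regions lay upstream of the nearest start site, at −51 bp (BLM), −83 bp (WRN) and −63 bp (DHX9). Each region has a gene that starts within 1 kb on the opposite strand: PURG at WRN, CRTC3-AS1 at BLM and DHX9-AS1 at DHX9. Relative to that gene each skew has the reverse sign, so the contrast between WRN and DHX9 holds only for the strands of the helicase genes. No R-loop was measured here.

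RTEL1, which dismantles telomeric loops and is needed for telomere stability, had weak peaks in 2 libraries of replicate 2 and none at its promoter in replicate 1. Fold enrichment was 4.56 in 2b (percentile 12.3) and 3.77 in 2c (percentile 4.57). These peaks overlapped by 53 bases and lay 200 to 420 bp downstream of the main start site (chromosome 20, 62289865 to 62290085 in all), touching an untranslated exon. Library 1c had a peak far inside the gene (62325706 to 62325931), 36041 bp or more downstream, touching exons of RTEL1 and of the readthrough gene RTEL1-TNFRSF6B; its fold was 4.58. The RTEL1 motif printed above was at −605 to −576 bp, away from these peaks. The nearest high-confidence region was 4345 bp from an RTEL1 start site, at STMN3. STMN3 and RTEL1-TNFRSF6B, both protein-coding, also have an annotated start site within 1 kb of an RTEL1 start. Whether the promoter peaks belong to RTEL1 alone was not tested.

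DDX11, required for sister chromatid cohesion, had a peak in libraries 2a and 2b. Fold enrichment was 5.62 in 2a and 5.84 in 2b, at percentiles 25.6 and 39.6. The 2b peak lay inside the 2a peak (chromosome 12, 31227059 to 31227205), 265 to 411 bp downstream of the main start site, and the summits were 8 bp apart. The peaks covered intron and an untranslated exon of DDX11. DDX11 has near-identical copies elsewhere in the genome. The treatment of reads matching several copies is not given in the sources used here, which leaves these values uncertain. The lncRNA gene DDX11-AS1 starts within 1 kb on the other strand.

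PIF1 had a peak in library 2a only (chromosome 15, 65117939 to 65118045), from −199 to −93 bp of the main start site and outside any annotated exon. Its fold was 5.17, at percentile 16.8. The high-confidence list thus separates WRN, with overlapping peaks in 4 lists, from DDX11 and RTEL1, with 2, and PIF1, with 1. All promoter peaks of those last 3 genes came from replicate 2, and none reached a −log10 p of 10. The highest was 8.83, at DDX11 in 2b.

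**Figure D2:**
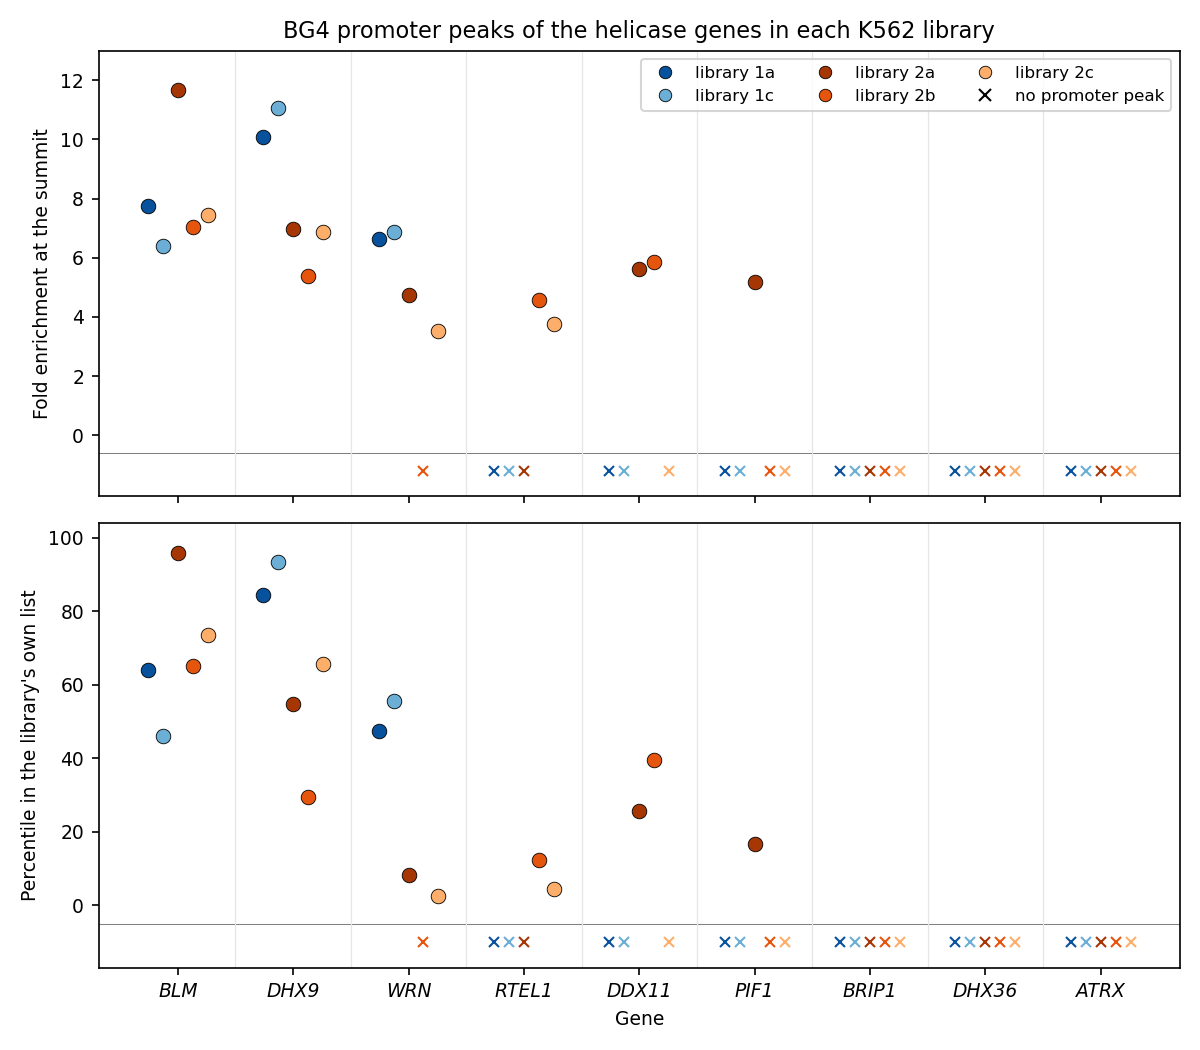
Fold enrichment at the summit (upper panel) and percentile of that fold in the library's own list (lower panel) for the strongest promoter peak of each gene, 1 point per library; crosses mark libraries without a promoter peak. BLM and DHX9 have 5 points each, WRN 4, and BRIP1, DHX36 and ATRX only crosses.

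By library, 3 of the 9 genes had a promoter peak in 1a and 3 in 1c, against 37.9% and 32.1% of all genes. In replicate 2 the counts were 5 in 2a, 4 in 2b and 4 in 2c, against 31.4%, 34.9% and 38.5%. The number of reads per library is unknown.

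BRIP1, the Fanconi anaemia helicase that binds BRCA1, DHX36, which resolves quadruplexes of RNA and DNA, and ATRX had no peak at the promoter or inside the gene in any library. The absence spans long genes: BRIP1 reaches from 59756500 to 59940920 on chromosome 17, DHX36 from 153990335 to 154042276 on chromosome 3, and ATRX from 76760358 to 77041719 on chromosome X. From their start sites the nearest peak of any library was 202367 bp away for BRIP1, 317704 bp for ATRX and 1102432 bp for DHX36. The nearest high-confidence regions belonged to the promoters of MED13, PGK1 and RAP2B. With the depth unknown, BG4 at these genes was not detectable rather than shown to be absent, and the copy number of these loci in K562 was not measured.

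The 3 genes without a peak had the lowest promoter GC content of the 9. Within 1 kb of the main start site it was 45.3% at BRIP1, 45.8% at DHX36 and 48.0% at ATRX. All 3 fell in the second decile of protein-coding genes, in which 11.7% had a high-confidence region. BLM and PIF1 both had 50.6%, in the next decile, where 26.6% had one. DDX11 had 55.02% (39.1% of its decile with a region), DHX9 57.7% (43.3%), WRN 62.5% and RTEL1 62.8% (47.9% for both). GC content did not order the genes fully: RTEL1 had the highest and no high-confidence region. BLM had a region, and a peak in every library, at the same GC content as PIF1. Each of the 9 promoters held a strict CpG island, meaning 500 bp whose GC share reached 0.55 and whose observed CpG count reached 0.65 of the expected. Among all genes with such an island 45.9% had a high-confidence region.

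**Figure D3:**
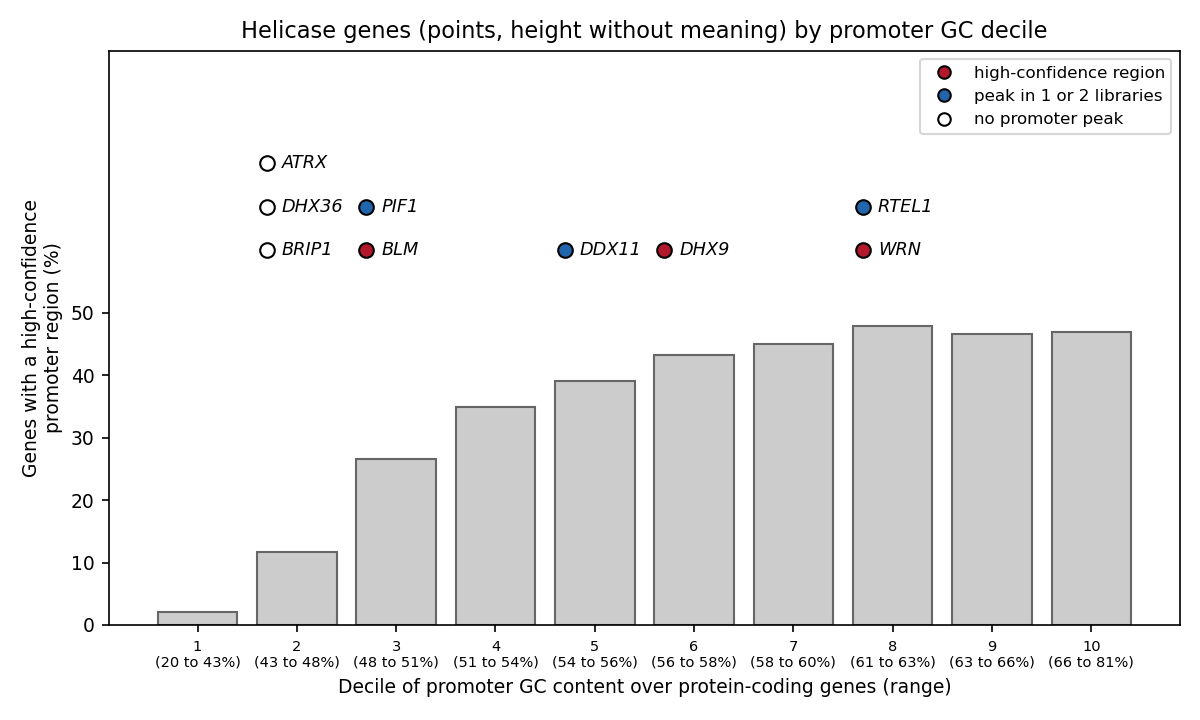
Share of all genes whose promoter had a high-confidence region (bars, percent) in each decile of promoter GC content, with the 9 helicase genes placed above their decile; the height of a point carries no value. The 3 genes without a peak stand over the second decile (11.7%), and genes with a region stand over deciles 3, 6 and 8.

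In strength, the BLM and DHX9 peaks were of middle rank among promoters bound in every library. For each of the 4467 such genes the lowest of the 5 percentiles was taken; its median was 39.0, with quartiles at 18.7 and 63.4. It was 46.1 for BLM, above 57.2% of these genes, and 29.5 for DHX9, above 38.7%. The promoters whose 5 percentiles lay closest to those of BLM, among 4448 genes outside the lists used here, were ASH2L (Euclidean distance 7.61 percentile points), SESN2 (12.8) and ATP6V0E1 (14.97). ASH2L had 65.3, 45.7, 91.2, 70.7 and 75.6 in libraries 1a to 2c. That likeness is over 5 libraries of 2 replicates and describes peak rank alone.

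The other genes of the pathway carried high-confidence regions at 26 of 44 promoters (59.1%), against 34.3% of all genes and 45.9% of genes with a strict island; 43 of the 44 had such an island. These lists were drawn up by function, with earlier results of these data known, and no test of them was made. RecQ helicases other than BLM and WRN were RECQL4 and RECQL5, each with a peak in all 5 libraries, and RECQL, with a peak in 1a alone. The RecQ family thus had a region at 4 of 5 promoters. Of the XPD-like helicases ERCC2, the XPD subunit of TFIIH, had one, with folds from 4.33 in 2c to 7.97 in 1a, and BRIP1, RTEL1 and DDX11 had none, which gives 1 of 4.

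Among 18 R-loop factors 8 had a region (44.4%), and 4 had a peak in all 5 libraries. The shares among all genes were 34.3% and 22.6%. All 18 had a strict island, and of all genes with such an island 45.9% had a region, so the R-loop factors were near that share. RNASEH1, which degrades RNA in hybrids, had folds of 8.72 and 9.75 in replicate 1 and 14.0, 5.82 and 8.58 in replicate 2. DDX1 had peaks in 3 libraries and DDX21 in 2, without a high-confidence region. Of 15 other quadruplex or replication factors 10 had a region (66.7%, against the same 34.3% of all genes), and 14 had a strict island. The primase-polymerase PRIMPOL, which restarts synthesis beyond quadruplexes, stood above at least 90.8% of peaks in each list, and the translesion polymerase REV1 above at least 48.8%. FANCM had no peak and HELQ had 1, in library 1a.

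Known partners of the helicases had a region at 5 of 7 promoters (71.4%), against 34.3% of all genes. All 7 had a strict island, and 45.9% of all genes with such an island had a region. Both H3.3 genes were bound in all libraries: the lowest percentile was 72.2 at H3-3A and 70.1 at H3-3B. The ATRX partner DAXX (chosen after its values were seen) also had 5 peaks, with folds from 6.97 in 2a to 10.0 in 1a, while ATRX itself had none. Of the BLM partners TOP3A and RMI1 had peaks in 2 libraries each, without a region, and RMI2 (also chosen after its values were seen) had a region and peaks in 3 libraries.

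**Figure D4:**
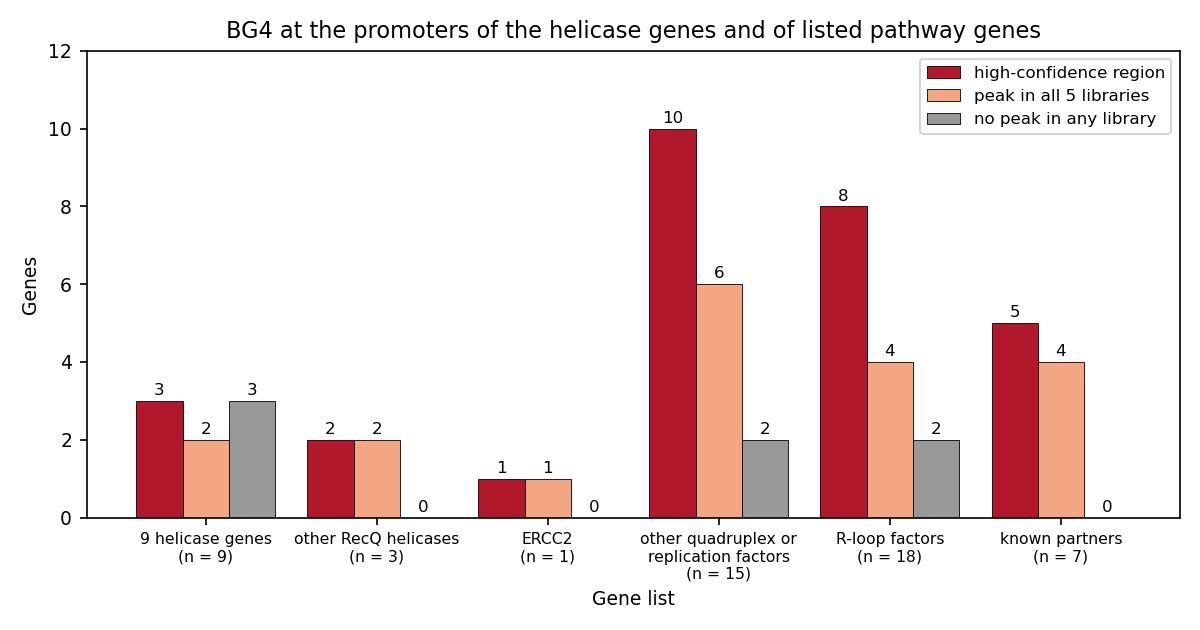
Number of genes (y axis) with a high-confidence promoter region, with a peak in all 5 libraries and without a peak in any library, for the 9 helicase genes and the other pathway lists (x axis, list size in brackets). Of the 9 helicase genes 3 have a region and 3 have no promoter peak, and of the 18 R-loop factors 8 have a region. Among all genes 34.3% have a region and 47% have a promoter peak in at least 1 library.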

How the data were processed

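Peaks were called with MACS2 on hg19, per the submitters' processing notes. Aligner, control library and filters are not given in the sources used here. Of the settings, only a p-value label is seen, in the names of the replicate 2 lists. The lowest −log10 p of a list ran from 5.002 in 1a to 5.053 in 2c. The deposited peak lists hold, per library, the fold enrichment (a ratio), the −log10 p and the −log10 q at each summit, and a score derived from the −log10 p, which was not used; the deposited high-confidence list gives only positions. Rebuilding it as bases covered by 3 or more lists gave identical regions outside the mitochondrial chromosome, 8940 in all. The lists held 8044 to 12484 peaks there.

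Start sites were those of basic protein-coding transcripts in GENCODE release 44 on GRCh37; gene symbols were counted once each. Restricting to basic transcripts was chosen after seeing the data, because among 5 transcript filters it gave the gene count of earlier processing of these data. A peak or region counted at a promoter when 1 base or more lay within 1 kb of a start site. A percentile is the share of peaks in the same list with a lower fold, for the strongest promoter peak of the gene. Technical libraries were averaged within a replicate before any SD, so n = 2; the 2 replicates measure only the spread between these samples. Promoter sequence was 2001 bases around the main (Ensembl canonical) start site. No comparison between groups was tested; the only test was Dixon's outlier criterion, applied to the values of single genes over libraries. Named genes were all members, from every other list 2 genes with a region, taken by the highest value of their lowest percentile, and 2 without, taken alphabetically, and genes that share a member's promoter. Some items under this rule and some motif sequences are not reported here. Members and lists were chosen with earlier results of these data known. Alternatives were other windows, start sites, peak thresholds, numbers of lists, motif definitions and rankings, and leaving out each library. Functions were tested on simulated data. Python 3.11.15, pandas 2.3.3 and pysam 0.24.0 were used.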

Additional observations from a re-analysis of the deposited data

Results flagged for a closer look

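The fold enrichment of the BLM peak in library 2a, 11.7, stood apart from the other 4 libraries: its gap to the next value was 0.741 of the whole range, above the critical value of 0.71 for 5 values. The percentile of the same peak (gap 0.446 of the range) and its −log10 p (0.522) did not stand apart. This was 1 of 9 sets of values examined, of which chance alone would flag about 1 in 20, and the 5 values come from 2 biological replicates and from lists that are not on a common scale.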

How the results depend on the processing

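The count of 3 helicase genes with a high-confidence promoter region, BLM, WRN and DHX9, held under most alternatives, while the share of all genes moved. With windows of 500 bp and 2 kb the count was 3, against 33.5% and 35.1% of all genes. With the start sites of all transcripts the count was 3, against 35.7%. Requiring the middle of the region in the window also left 3, against 34.2%. With 4 or more lists the count was 3, against 28.8%. Without any single library the count was 3, against shares from 29.8% without 2c to 32.1% without 2a. With all protein-coding transcripts in place of basic ones, an alternative chosen after seeing the data, the same 3 genes had a region, against 34.9% of all genes. The count was 2, without WRN, with all 5 lists or when peaks needed a −log10 p of 10. The shares of all genes were then 21.7% and 24.4%. The count with gene bodies included moved in the same way, against 23.7% of all genes with all 5 lists and 26.9% at that threshold. At the stricter peak threshold RTEL1, DDX11 and PIF1 had 0 libraries with a promoter peak and WRN had 2. The number of regions with a G4 motif was 2 with loops of up to 12 bases and with 100 bp added on either side, while the share of all promoter regions with a motif went from 37.3% to 53.2% and 52.8%; it was 3 with runs of 2 or more G (93.9% of all). Ranking by −log10 p or among promoter peaks alone moved the mean percentiles by less than their SD: BLM had 70.1 and 59.8, DHX9 70.3 and 65.6, and WRN 28.6 and 22.4. GC skew in the central 201 bases kept its sign in all 3 regions. The unknown number of reads limits what the missing peaks can show.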
